A study of Mus musculus with 2 samples.

Results

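The miR-30 family of the mouse was followed through microRNA sequencing libraries of C2C12 myocytes. The family was taken as the 6 annotated genes Mir30a, Mir30b, Mir30c-1, Mir30c-2, Mir30d and Mir30e, chosen by gene name, of 2202 microRNA genes measured. C2C12 is a myoblast line from injured thigh muscle of C3H mice that stops dividing and fuses into muscle cells when differentiation is induced. The series held 1 group: C2C12 myocytes differentiated for 72 h, with 2 libraries labelled as biological replicates 1 and 2. Undifferentiated cells were not analysed here. Separate differentiation of the cultures is not stated in the labels, and the spread between the libraries, and with it any p-value, may be technical in part.

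MicroRNAs are short RNAs cut from hairpin precursors. One arm of the hairpin guides Argonaute proteins to messenger RNAs, mostly by pairing of its seed, bases 2 to 8, and lowers the output of those messages. The miR-30 genes share the seed of their 5p arm, the arm that lies first in the hairpin, and so are thought to act on overlapping sets of messages. The family is widely expressed, is abundant in heart and skeletal muscle, and stands at 3 loci of 2 genes each.

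The mature arms are shown because the 5p seed defines the family and because the identity of the arms between genes bears on how reads could be counted. Mature sequences were found in RefSeq (build GRCm38.p6) for 4 of the 6 members, Mir30a, Mir30c-1, Mir30c-2 and Mir30e; those of Mir30b and Mir30d were not used here. Each is written 5′ to 3′ with the seed in capitals.
miR-30a-5p: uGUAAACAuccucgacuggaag
miR-30e-5p: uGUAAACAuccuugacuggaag
miR-30c-5p: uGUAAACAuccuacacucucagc
miR-30a-3p: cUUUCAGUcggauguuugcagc
miR-30e-3p: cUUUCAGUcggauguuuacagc
miR-30c-1-3p: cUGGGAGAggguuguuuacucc
miR-30c-2-3p: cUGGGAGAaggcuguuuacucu

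All of these 5p arms carried the seed GUAAACA and were identical over their first 12 bases. The 3p arms fell into 2 seed groups, UUUCAGU in Mir30a and Mir30e and UGGGAGA in the Mir30c genes. Counting positions from 1 at the 5′ end, miR-30a-5p and miR-30e-5p differed by C13U alone, and miR-30a-3p and miR-30e-3p by G18A alone. The 3p arms of the Mir30c genes differed at 3 positions, as G9A, U12C and C22U from miR-30c-1-3p to miR-30c-2-3p. The 5p arm miR-30c-5p, in contrast, was the same in both Mir30c hairpins.

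The Mir30c hairpins are shown whole, since their shared stretch is longer than a mature microRNA. Capitals mark the longest run of bases that both hairpins contain, 28 bases. Mir30c-1 lies at chr4:120769534-120769622 on the minus strand and Mir30c-2 at chr1:23291701-23291784 on the plus strand (GRCm38.p6).
Mir30c-1: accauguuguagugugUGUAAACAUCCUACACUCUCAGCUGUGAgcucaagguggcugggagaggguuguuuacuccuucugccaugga
Mir30c-2: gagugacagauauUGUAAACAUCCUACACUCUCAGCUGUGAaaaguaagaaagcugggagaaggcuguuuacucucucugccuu

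The run covers all of miR-30c-5p. Mir30a and Mir30e, by comparison, shared 18 bases with each other, the longest run that either shared with any other hairpin in the table. A read of miR-30c-5p cannot be given to Mir30c-1 or to Mir30c-2 from its sequence. Where reads that map to more than 1 place are left out of gene counts, as the layout of the files implies, the counts of the Mir30c genes hold only reads that tell the hairpins apart, and they are uncertain as a measure of miR-30c.

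The members lie on 3 chromosomes of the mm10 build, in GENCODE M21 coordinates. On chromosome 1, plus strand, Mir30a (ENSMUSG00000065405.3) spans 23272269 to 23272339 and overlaps no other annotated gene. Mir30c-2 (ENSMUSG00000065567.1) follows 19361 bases downstream, from 23291701 to 23291784, within the exon of Gm27028, a long noncoding RNA gene. On chromosome 4, minus strand, Mir30e (ENSMUSG00000065409.1; 120772606 to 120772697) and Mir30c-1 (ENSMUSG00000065490.1; 120769534 to 120769622) lie 2983 bases apart in introns of Nfyc, the gene of a subunit of the CCAAT-binding transcription factor NF-Y. On chromosome 15, minus strand, Mir30d (ENSMUSG00000065437.1, 68341208 to 68341289) falls within an exon of Gm20732, also a long noncoding RNA gene. Mir30d also overlaps an exon of Gm37296 by 9 bases. Mir30b (ENSMUSG00000065476.2, 68337415 to 68337510) lies 3697 bases from Mir30d and overlaps the exon of the processed transcript Gm26621 by 16 bases.

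The libraries were of similar depth. Replicate 1 had 15349205 reads, with 7581366 counted for microRNA genes in sense direction and 3378438 mapped to more than 1 place. Replicate 2 had 18450359 reads, with 9865298 counted and 3295854 mapped to more than 1 place. The label of the cells was checked against 9 muscle microRNA genes, which together took 35.5% of assigned counts in replicate 1 and 42.8% in replicate 2. The muscle-restricted Mir206 made up almost the whole of this share, with 2584038 of 2693773 counts in replicate 1 and 4111798 of 4225060 in replicate 2. Of the 9 genes, 7 were detected. The classical muscle genes Mir1a-1 and Mir1a-2 averaged only 2.94 and 3.02 CPM, and Mir133a-1 (9 and 28 counts) and Mir133a-2 (8 and 10) were not detected. Reads that mapped to more than 1 place are not in these counts, as the layout of the files implies. How many such reads belong to miR-1a or miR-133a was not tested. These low counts are therefore uncertain as a measure of either. The 6 Mir124a and Mir9 genes of neurons had 0 and 1 counts in all, the 5 epithelial genes of the miR-200 family 33 and 21, and Mir122 of liver 8 and 4. The 5 blood cell genes had 794 and 1809 counts, mostly of Mir142, and the endothelial Mir126a had 1646 and 423.

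All 6 miR-30 genes had at least 10 counts in each library, the minimum for calling a gene detected, which 314 genes met. Levels are given as CPM, counts per 1000000 assigned counts. Together the family had 113249 counts in replicate 1 and 141818 in replicate 2, or 14938 and 14375 CPM. It thus took 1.49% and 1.44% of the assigned counts (1.47% ± 0.0398, SD, n = 2). The family sum differed less between the libraries than the level of any single member. The median of the members' mean levels was 2201 CPM, beside 53.1 CPM over all detected genes, and 4 of the 6 stood among the 100 most abundant genes.

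Mir30a was the most abundant member in both libraries. It had 6120 CPM in replicate 1 and 6588 CPM in replicate 2 (6354 ± 331, SD, n = 2) and stood at rank 26 and rank 20 of all genes. It made up 41.0% and 45.8% of the family's counts. Its lower library lay above the higher library of every other member.

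Mir30d and Mir30e came next, and their order was not the same in both libraries. Mir30d had 4375 CPM in replicate 1 and 3107 CPM in replicate 2 (3741 ± 897, SD, n = 2). Mir30e had 2408 and 3262 CPM (2835 ± 604). Mir30d was 1.82 times Mir30e in replicate 1 and 0.953 times in replicate 2, so these neighbours in the order did not differ beyond their spread. Mir30d held 29.3% of the family's counts in replicate 1 and 21.6% in replicate 2, and Mir30e 16.1% and 22.7%.

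Mir30b followed with 1886 CPM in replicate 1 and 1249 CPM in replicate 2 (1568 ± 450, SD, n = 2). Its values lay below both values of Mir30e and far above the Mir30c genes. It made up 12.6% and 8.69% of the family's counts. No opposite-strand count was seen at any of the 6 hairpins. Mir30f, annotated over the whole Mir30e hairpin on the other strand, was at 0 sense counts in both libraries. At 3 counts, the one-sided 95% limit for counting error alone, its level could reach 0.396 CPM in replicate 1 and 0.304 CPM in replicate 2.

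The Mir30c genes were the lowest members and nearly equal to each other. Mir30c-1 was counted 593 times in replicate 1 and 849 times in replicate 2, or 78.2 and 86.1 CPM (82.1 ± 5.54, SD, n = 2). Mir30c-2 had 535 and 812 counts, or 70.6 and 82.3 CPM (76.4 ± 8.30). Their ranges overlapped. Together they made up 0.996% and 1.17% of the family's counts. Whether reads of the common miR-30c-5p arm entered these counts was not tested. Mir30b was 24.1 times Mir30c-1 in replicate 1 and 14.5 times in replicate 2.

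**Figure D1:**
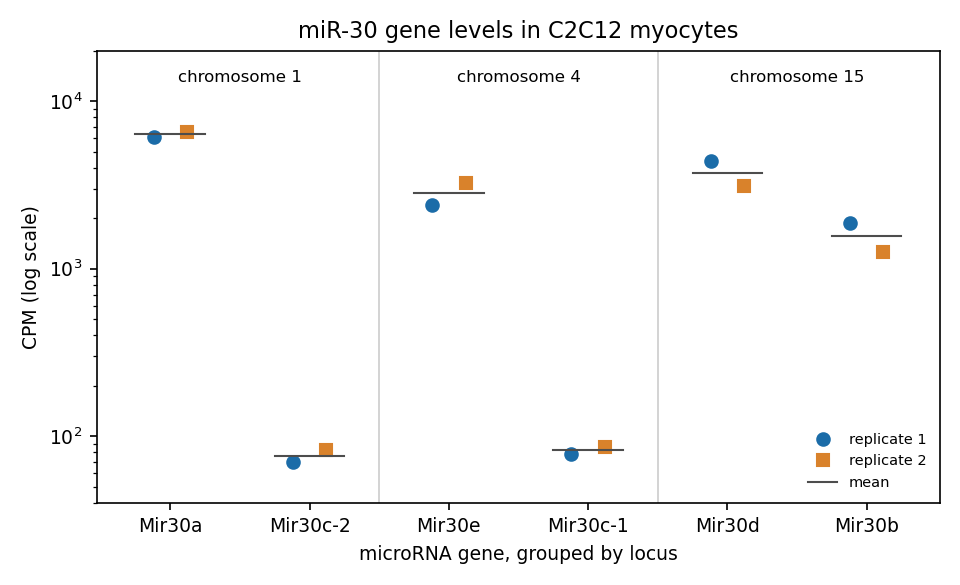
Level of each miR-30 gene in CPM on a log axis, with circles for replicate 1, squares for replicate 2 and a line at their mean, grouped by locus. Mir30a sits highest at 6120 and 6588 CPM, and the Mir30c genes sit lowest, between 70.6 and 86.1 CPM.

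Hairpins differ in length, from 71 bases in Mir30a to 96 in Mir30b, so the order of the levels was also taken per length. Mir30a had a mean of 8950 CPM per 100 bases of hairpin, followed by Mir30d with 4563, Mir30e with 3081, Mir30b with 1633, Mir30c-1 with 92.3 and Mir30c-2 with 91.0. The order was that of the undivided means. The mature arms shown are 22 or 23 bases long whatever the length of the hairpin. Counts need not scale with hairpin length, so the division is a description only. Sequence-dependent ligation and amplification of short RNAs were not measured, and their part in the order was not tested. With 2 values against 2, an exact two-sided permutation test cannot go below p = 0.333, so the order is a description.

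Another gene with the same 5p seed was nearly silent. Mir384, an X-linked gene whose 5p arm is shown for comparison, had 2 counts in replicate 1 and 0 in replicate 2.
miR-384-5p: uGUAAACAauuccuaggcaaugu
Its arm was identical to the miR-30 arms over the first 8 bases and then departed from them. Of the 1679 mature microRNA names in the table, 4 had the seed GUAAACA: the 3 miR-30 arms shown and miR-384-5p. The arms of Mir30b and Mir30d were not among these names, so the search did not cover them. Among the arms searched, the 3p seed UUUCAGU was found only in Mir30a and Mir30e. The 3p seed UGGGAGA was found also in Mir6958, with 3 counts in replicate 1 and 6 in replicate 2.

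Within each locus, the gene named first below had more counts than its partner in both libraries. On chromosome 1, Mir30a was 86.7 times Mir30c-2 in replicate 1 and 80.0 times in replicate 2, a mean log2 ratio of 6.38 ± 0.0818 (SD, n = 2). On chromosome 4, Mir30e was 30.8 and 37.9 times Mir30c-1, a mean log2 ratio of 5.09 ± 0.212. On chromosome 15, Mir30d was 2.32 and 2.49 times Mir30b, a mean log2 ratio of 1.26 ± 0.0708. The first 2 ratios compare a hairpin with arms of its own with a hairpin whose 5p arm also stands at another locus, so they are uncertain. These ratios within a library do not depend on how libraries are scaled.

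At chromosome 1 the ratio of partners did not differ between the libraries beyond counting error. The 95% exact binomial (Clopper-Pearson) intervals of log2 Mir30a over Mir30c-2 were 6.32 to 6.56 in replicate 1 and 6.22 to 6.42 in replicate 2 and overlapped. Those of Mir30e over Mir30c-1 were 4.83 to 5.06 and 5.15 to 5.34 and did not overlap. Those of Mir30d over Mir30b were 1.19 to 1.24 and 1.28 to 1.34 and did not overlap either. The intervals cover counting error only, since reads without molecular identifiers are not independent molecules.

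The libraries were then compared gene by gene with an exact two-sided binomial test of the counts given the library totals, adjusted by the Benjamini-Hochberg method over all 314 detected genes. The test compares these libraries, not conditions. An adjusted p below 0.05 was reached by 5 of the 6 members, beside 66.6% of all detected genes. It was reached toward replicate 1 by 2 members (38.2% of all detected genes) and toward replicate 2 by 3 (28.3%). Of the 187 genes with at least 100 counts in each library, as all members had, 88.8% passed, so the count says little about the family. The sizes were modest: 1 member, Mir30b, exceeded the median absolute log2 ratio of all detected genes, 0.51. The members' median log2 ratio, replicate 1 over replicate 2, was −0.12, and that of all detected genes was 0.09.

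Both genes on chromosome 15 were higher in replicate 1. Mir30b was 1.51-fold higher there (log2 ratio 0.59, counting interval 0.56 to 0.63, adjusted p = 7.55e-246 in the exact binomial test), and Mir30d was 1.41-fold higher (0.49, interval 0.47 to 0.52). The locus accordingly held 41.9% of the family's counts in replicate 1 and 30.3% in replicate 2.

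The genes of the other loci leaned toward replicate 2. Mir30e had a log2 ratio, replicate 1 over replicate 2, of −0.44 (interval −0.46 to −0.41, adjusted p = 1.93e-240 in the exact binomial test). Mir30c-2 had −0.22 (interval −0.38 to −0.06, adjusted p = 0.00966 in the exact test). Mir30a had −0.11 (interval −0.12 to −0.09, adjusted p = 1.55e-33 in the exact test). Mir30c-1 had −0.14 (interval −0.29 to 0.02) and did not pass (adjusted p = 0.108 in the exact test); it passed with TMM factors in place of totals, at a log2 ratio of −0.24. The chromosome 4 locus held 16.6% of the family's counts in replicate 1 and 23.3% in replicate 2, and the chromosome 1 locus 41.4% and 46.4%. Mir126a, the endothelial gene, was 5.06-fold higher in replicate 1, and Mir142 of blood cells was 1.99-fold higher in replicate 2. Their part in these differences was not tested.

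**Figure D2:**
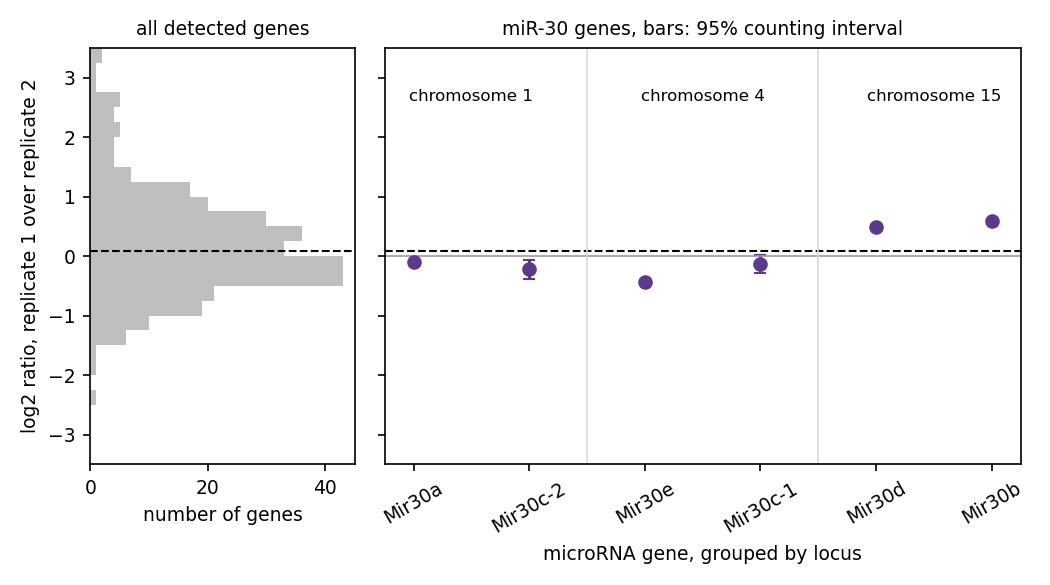
Left, the number of detected genes by log2 ratio of CPM, replicate 1 over replicate 2, with the median of 0.09 as a dashed line. Right, the ratio of each miR-30 gene with its 95% counting interval: the chromosome 15 genes lie above 0 at 0.49 and 0.59, and the genes of the other loci lie below 0, between −0.44 and −0.11.

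Partners of each miR-30 locus thus had ratios of like sign, though the interval of Mir30c-1, −0.29 to 0.02, took in both signs. Their log2 ratios, replicate 1 over replicate 2, differed by 0.12 between Mir30a and Mir30c-2, by 0.30 between Mir30e and Mir30c-1 and by 0.10 between Mir30d and Mir30b. As background, 64 pairs of detected genes stood next to each other on the same strand with at most 20000 bases between them, a limit set to take in the chromosome 1 pair. In 35 of these (54.7%) both genes had a ratio of the same sign, and the median absolute difference was 0.64. The 64 pairs include those of the miR-30 loci, and pairs that share a gene are not independent. The pairs were not matched for counts. Their genes needed only 10 counts in each library, while each miR-30 gene had at least 535. Counting error is wider at low counts and enters both the share and the median. All 3 miR-30 pairs lay below that median, and no test of this was made.

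The miR-181 and miR-29 families, which also stand as pairs of genes at several loci, were set beside miR-30. Ratios of partners were of opposite sign at 4 of their 5 loci. At the chromosome 2 locus, Mir181a-2 had a log2 ratio, replicate 1 over replicate 2, of 1.13 and Mir181b-2 of −0.76. Mir181c and Mir181d, on chromosome 8, were the pair of like sign, with −0.52 and −0.19. The difference between partners was 0.33 there and 0.47 to 1.89 at the other 4 loci, against 0.10 to 0.30 for miR-30. Of the genes at those 4 loci, Mir29b-1 had 47 and 62 counts, Mir29b-2 61 and 103 and Mir181b-1 44 and 77, far fewer than any miR-30 gene. Their ratios did not pass the binomial test (adjusted p = 1, 0.16 and 0.166 in the exact test). The direction of 1 partner was therefore unresolved at 3 of the 4 loci. By the same test the direction of Mir30c-1 was unresolved in miR-30 (adjusted p = 0.108 in the exact test). The contrast with miR-30 was not tested.

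**Figure D3:**
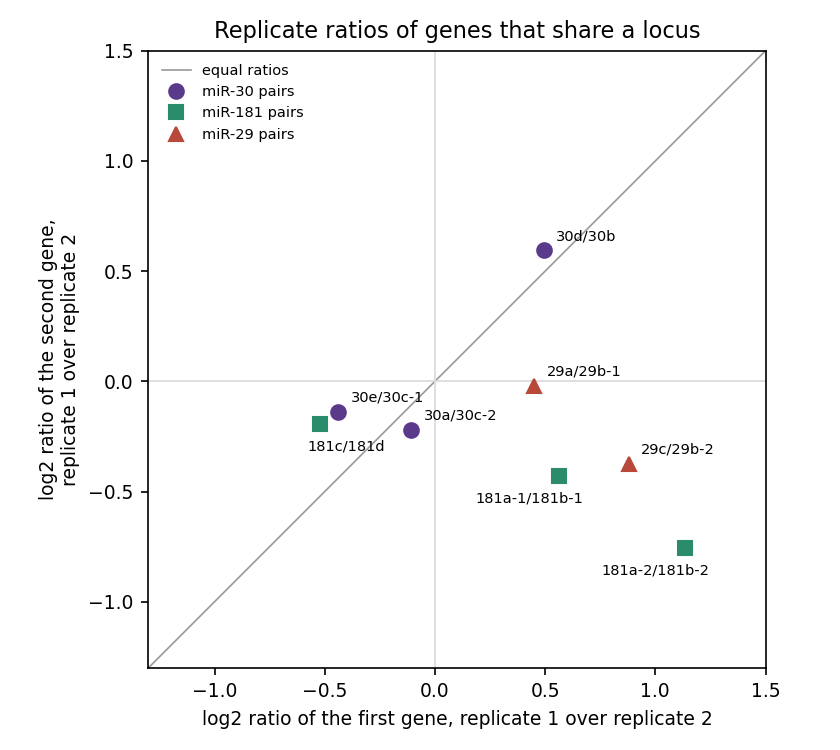
Log2 ratio of CPM, replicate 1 over replicate 2, of the first gene of each locus (horizontal axis) and of its partner (vertical axis), with a line where both are equal. The miR-30 pairs (circles) lie near the line, at differences of 0.10 to 0.30, and the miR-181 pair farthest from it differs by 1.89.

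In summed level of assigned counts the miR-30 family stood above both. It had 14938 CPM in replicate 1 and 14375 CPM in replicate 2, against 6406 and 4646 CPM for the 4 genes of miR-29 and 3138 and 3784 CPM for the 6 genes of miR-181. The levels of the libraries did not overlap between families. The most abundant miR-30 gene had 83.1 times the mean CPM of the least abundant one. This factor was 851 in miR-29 and 213 in miR-181. The sums and factors leave out reads that map to more than 1 place, as the layout of the files implies. Arms identical at another locus were miR-30c-5p, miR-181a-5p, miR-181b-5p and miR-29b-3p. The part left out may differ between the families and was not measured.

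In each of these families the lowest genes were ones with an arm that is identical at another locus. In miR-30 these were Mir30c-1 and Mir30c-2, at means of 82.1 and 76.4 CPM. In miR-29 they were Mir29b-1 and Mir29b-2, at 6.24 and 9.24 CPM, beside 5311 CPM for Mir29a and 199 for Mir29c. In miR-181 they were Mir181b-1 and Mir181a-2, at 6.80 and 28.5 CPM, with Mir181b-2 and Mir181a-1 at 343 and 472, beside 1451 CPM for Mir181c and 1160 for Mir181d. Over detected genes with a mature sequence in the table, the median level was 29.3 CPM for the 43 genes with such an arm and 79.7 CPM for the other 235. How many reads of these arms lie among the multi-mapped reads was not tested.

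**Figure D4:**
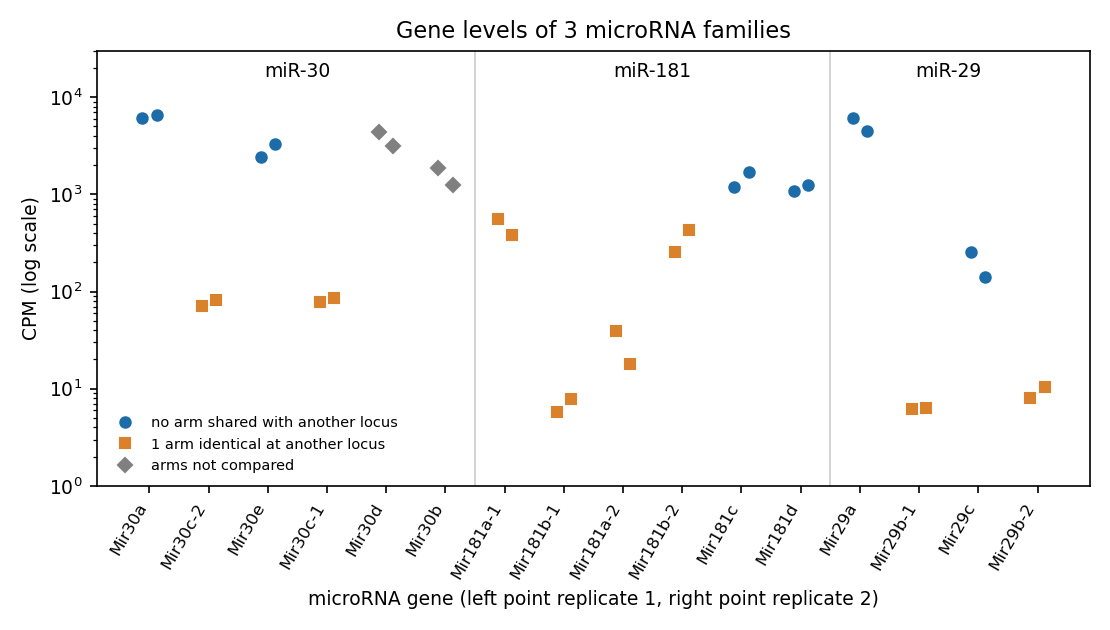
Level of each gene of the miR-30, miR-181 and miR-29 families in CPM on a log axis, with replicate 1 as the left and replicate 2 as the right point. Genes with an arm identical at another locus (squares) sit lowest in each family, with miR-30 squares between 70.6 and 86.1 CPM; Mir30d and Mir30b (diamonds) were not compared for arms.

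Beside 27 other genes tied to muscle differentiation, the miR-30 genes had the higher median level but not the higher sum. The 27 genes took 49.7% of assigned counts in replicate 1 and 60.4% in replicate 2, against 1.49% and 1.44% for miR-30. The median of the members' mean levels was 2201 CPM, against 378 CPM for the 27 genes, of which 25 were detected. Of the 27, those with a higher mean level than Mir30a were Mir206, Mir378a, Mir322, Mir133b and Mir27b. Mir206 averaged 378817 CPM, Mir378a 112998 CPM, Mir322 20298 CPM, Mir133b 12089 CPM and Mir27b 7874 CPM, against 6354 CPM for Mir30a. Several genes of the list share sequence with other hairpins, so their counts are uncertain and may be too low. The list's median may be too low with them. How far this enters the comparison was not tested. Of the 25 detected genes of the list, 14 passed the binomial test toward replicate 1 (38.2% of all detected genes) and 6 toward replicate 2 (28.3%). The list's median log2 ratio, replicate 1 over replicate 2, was 0.23, beside 0.09 over all detected genes. Of the 187 genes with at least 100 counts in each library, 104 passed toward replicate 1 and 62 toward replicate 2. Their median log2 ratio was 0.28, so the lean toward replicate 1 is not particular to the list.

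The detected gene outside the family nearest to each member in log2(CPM + 1) over both libraries was also taken. Mir214, a gene tied to myoblast differentiation, was nearest to Mir30e at a distance of 0.04, with 2359 CPM in replicate 1 and 3329 CPM in replicate 2. Mirlet7c-1 was nearest to Mir30c-2 at 0.06, Mir450-2 to Mir30c-1 at 0.10 and Mir151 to Mir30b at 0.10. Mir149 and Mir188 were nearest to Mir30a and Mir30d, at the wider distances of 0.44 and 0.43. The likeness rests on 2 libraries.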

How the data were processed

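MicroRNA libraries of 2 replicates of C2C12 myocytes were analysed. The deposited values are read counts per microRNA gene, whole numbers that the authors did not normalize as far as the values show. Adapters were trimmed per the labels' protocols. Per the file headers of the deposited notes, reads were placed on mm10 with GENCODE M21 as annotation. An aligner or counter was not given in the sources used. The 3 count columns and 4 further entries have the layout of STAR gene counts, in which uniquely mapped reads are counted. The sense-strand column was used, and the 4 entries, 50.6% of reads in replicate 1 and 46.5% in replicate 2, stayed out of library sizes.

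All 2202 identifiers matched the annotation. CPM was computed over assigned counts. Genes with at least 10 counts in each library were tested with an exact binomial test and Benjamini-Hochberg adjustment (scipy 1.17.1). TMM factors (edgeR 4.0.16) and DESeq2 1.42.0 size factors served as alternatives only. The binomial test was also run on simulated counts that held counting error only. The simulation therefore does not cover further spread between replicates.

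The members and lists were chosen with earlier results of these data known. The genes named are the members, genes with a member's seed, the nearest gene to each member, the miR-181 and miR-29 genes, and examples from the muscle and cell type lists. The examples, the neighbour pairs and the comparison of identical arms were chosen after values were seen.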

Additional observations from a re-analysis of the deposited data

Results flagged for a closer look

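Reads that mapped to more than 1 place stand in an entry of their own in the files and, as their layout implies, enter no gene count. They numbered 3378438 in replicate 1 and 3295854 in replicate 2. The files do not say how many of them are reads of miR-30c-5p, which stands in 2 hairpins.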

How the results depend on the processing

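The family's share of 1.47% was 1.35% in the either-strand counts, 0.753% over all reads and 2.37% without Mir206 in the denominator. In the either-strand counts Mir30e had 0 counts, since Mir30f covers its hairpin on the other strand and such reads are ambiguous there. With 2 libraries, leaving out 1 replicate returns the value of the other. The ranges that follow therefore restate the library values and are no further check. The share ranged from 1.44% to 1.49% and log2 Mir30a over Mir30c-2 from 6.32 to 6.44. Log2 Mir30e over Mir30c-1 ranged from 4.94 to 5.24 and log2 Mir30d over Mir30b from 1.21 to 1.31. The either-strand counts gave no ratio for Mir30e.

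Members past the binomial test numbered 5 of 6 with totals, 6 with TMM factors, 6 with DESeq2 size factors, and 5 with minimums of 1 or 100 counts. They numbered 5 of 5 in the either-strand counts and with the Mir30c copies summed. The member that changed was Mir30c-1, whose adjusted p in the exact test was 0.0039 with TMM factors, 0.00541 with DESeq2 size factors, 0.00588 in the either-strand counts and 8.71e-05 without Mir206. Leaving Mir206 out of the totals shifted the median log2 ratio of all genes by −0.18. No member's ratio changed sign under the alternatives run. No paired analysis was possible because the series held 1 group. The Mir30c genes, at 535 to 849 counts a library, had wider counting intervals than the other members. How far reads of miR-30c-5p left out of gene counts lower these counts was not tested.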
